A study of Mus musculus with 4 samples.

Results

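The 36 genes described here encode the machinery of mitosis, from the kinases that start it to the proteins that split the cell, and they were picked by name from the gene names of the array design. All 36 were among the 22461 genes that could be tested, and in both groups each lay well above background on all 4 arrays. Ureters of wild-type NMRI mouse embryos were explanted at E12.5 and kept for 18 h in serum-free medium with 10 µM IWP-2 or with its solvent DMSO (2 parts in 1000) as the control. IWP-2 blocks Porcupine, the acyltransferase that WNT ligands need for secretion, and acts on every cell type of the explant, so that the block was not limited to 1 tissue layer. The sex of the embryos was not determined, and each RNA came from a pool of ureters. On each of the 4 two-color arrays a treated pool was set against a control pool, with the treated RNA in the red channel on arrays 1 and 3 and in the green channel on arrays 2 and 4. All values below are log2 ratios of IWP-2 over control unless stated otherwise, given as the mean of 4 arrays ± SD, and adjusted p is the limma p after Benjamini-Hochberg correction over all 22461 genes.

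Mitotic genes are transcribed late in the cell cycle, mostly in G2 phase and mitosis, and many of their transcripts and proteins are removed again when division ends. Entry into mitosis is driven by cyclin-dependent kinase 1 with its A- and B-type cyclins. The kinetochore then ties chromosomes to spindle microtubules, the spindle checkpoint holds the cell until all of them are attached, and the anaphase-promoting complex with separase releases the sister chromatids before the central spindle guides cytokinesis. In a tissue, transcripts of these genes come mainly from the cells that are cycling at the time. Fewer cycling cells and less RNA per cycling cell cannot be told apart in RNA from whole explants, which holds for all results below.

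Many promoters of this gene class hold a cell cycle homology region (CHR, with the core TTTGAA or TTCGAA), which is bound by MuvB complexes, and CCAAT boxes, which are bound by NF-Y. RefSeq promoter windows (GRCm38.p6, 250 bases before to 50 after a gene start) were found for 30 of the 36 genes, with 32 windows in all. Ccna2, Spc24, Aurkb, Incenp, Tpx2 and Kif20a were not matched. A search of both strands found a CHR core in 26 of the 32 windows (81.2%) and CCAAT in 25 (78.1%), against 19.2% and 37.4% of the 32851 windows of all genes. Both motifs together stood in 71.9% of the windows of the mitosis genes and in 7.52% of all windows. The motifs were searched for separately, and a match is a description of letters in the window, not of a bound site. The share with a CHR core was 6 of 8 windows for genes that were lower with IWP-2 and 20 of 24 for genes that did not pass the test. The following stretches of 100 bases end at the base before the gene start, run 5′ to 3′ on the gene's strand, and are shown because each holds both motifs close to the start; the first 4 belong to genes that were lower with IWP-2 and the last 2 to genes that did not pass the test. Capitals mark TTTGAA and CCAAT on either strand (TTCAAA and ATTGG on the other).
Kif11 (chr19:37376282-37376381, plus strand): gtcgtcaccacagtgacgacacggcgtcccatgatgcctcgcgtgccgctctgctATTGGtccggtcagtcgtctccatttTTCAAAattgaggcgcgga
Espl1 (chr15:102296193-102296292, plus strand): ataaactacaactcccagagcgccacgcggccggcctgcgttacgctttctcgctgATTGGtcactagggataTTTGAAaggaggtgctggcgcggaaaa
Cdk1 (chr10:69352913-69353012, minus strand): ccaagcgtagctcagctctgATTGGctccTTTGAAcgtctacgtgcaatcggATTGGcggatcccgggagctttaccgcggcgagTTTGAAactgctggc
Top2a (chr11:99024190-99024289, minus strand): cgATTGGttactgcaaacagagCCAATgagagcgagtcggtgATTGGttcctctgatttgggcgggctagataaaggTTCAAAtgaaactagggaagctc
Cdc20 (chr4:118437344-118437443, minus strand): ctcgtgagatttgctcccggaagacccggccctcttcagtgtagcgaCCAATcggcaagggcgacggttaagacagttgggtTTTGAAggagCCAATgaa
Prc1 (chr7:80294376-80294475, plus strand): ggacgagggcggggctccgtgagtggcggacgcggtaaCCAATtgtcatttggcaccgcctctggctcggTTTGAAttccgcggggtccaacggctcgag

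Over all steps, the mitosis genes shifted a little to the low side with IWP-2. Of the 36 genes, 11 (30.6%) were lower and 0 were higher past the test, while 15.0% of all genes tested were lower and 18.1% were higher. At an unadjusted limma p under 0.05 the counts were 17 lower and 0 higher, against 20.3% and 23.7% of all genes. The members were chosen with earlier results of these data known. Without Cdk1, Bub1, Aurkb and Top2a, all of them lower after adjustment, 7 of the other 32 members were lower after adjustment. The median of the 36 mean ratios was -0.082, against 0.0011 for all genes tested. Of the 36 means, 30 lay below 0, as did 11148 of the 22461 means of all genes tested. The changes were small. The largest, that of Spc24, was 1.29-fold, and no member passed 1.5-fold. Among the called genes, 8.91% of all and 0 of the 11 members exceeded this size. With 11 called members these shares cannot be told apart. The order depended on the processing, since Aurkb was the lowest member at 1.31-fold without the offset of the background correction, at 1.36-fold with the processed signals and at 1.34-fold with the series table, and Bub1 was the lowest at 1.32-fold without array 2. On 4 of 4 arrays the ratio was below 0 for 12 members, a count to be read against 21.0% of all genes. Kif23 was the only member above 0 on all 4 arrays, as were 22.3% of all genes.

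**Figure D1:**
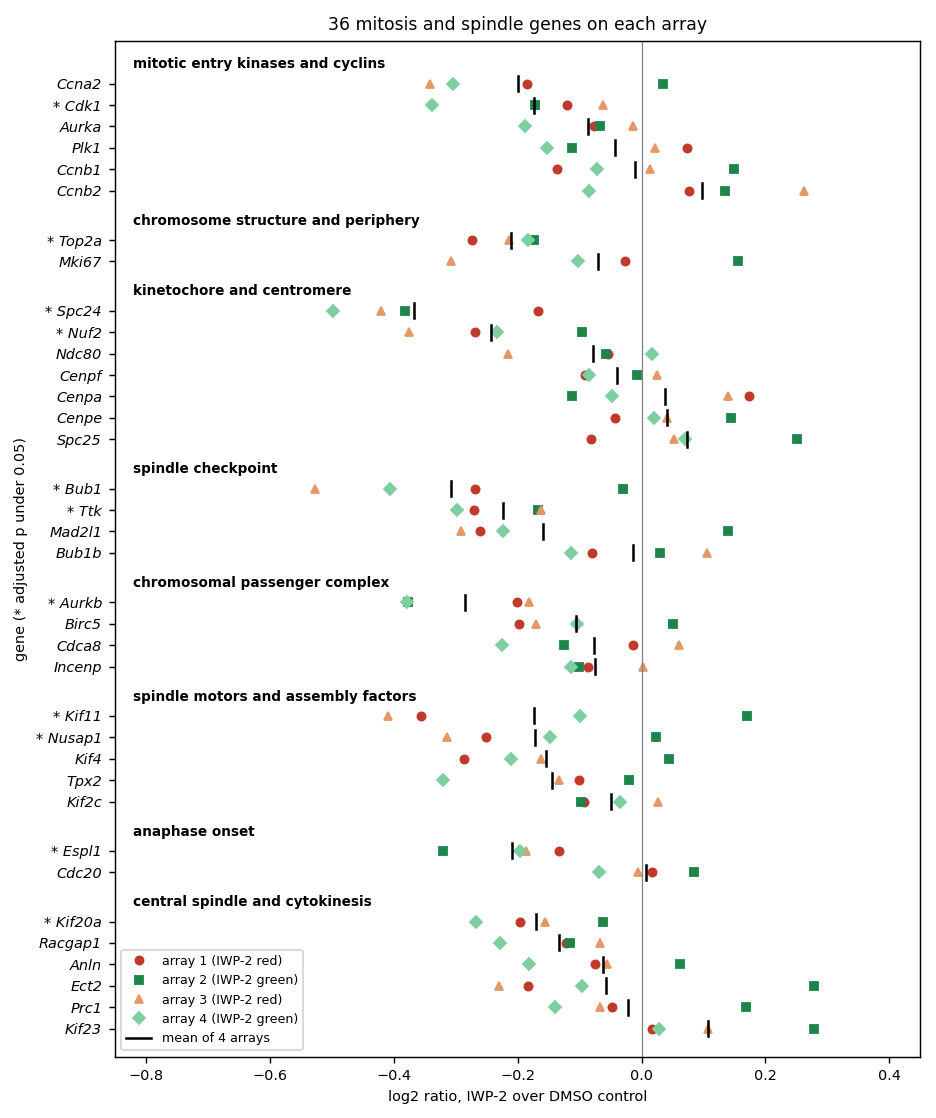
Log2 ratio of IWP-2 over DMSO control (horizontal axis) of the 36 mitosis and spindle genes, grouped by step of mitosis. Each symbol is 1 array, the black bar is the mean of the 4 arrays, and an asterisk marks the 11 genes past the test; the symbols of array 2 (dark green squares) often lie to the right of the other 3, as for Bub1, Mad2l1, Kif11 and Ect2.

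The 4 arrays did not show the shift to the same extent. The median of the 36 genes was -0.11 on array 1, -0.014 on array 2, -0.10 on array 3 and -0.15 on array 4, while that of the whole set of tested genes ranged from -0.0025 to 0.0094. Below 0 were 31 members on array 1, 19 on array 2, 24 on array 3 and 32 on array 4. The shift of the group was smallest on array 2 and largest on array 4, which share the dye order; the part of dye order in it was not tested. Across the 36 genes, the pairs with the same dye order correlated with r = 0.76 (arrays 1 and 3) and r = 0.63 (arrays 2 and 4). For pairs of opposite dye order, r was 0.11 (arrays 1 and 2), 0.18 (2 and 3), 0.45 (1 and 4) and 0.55 (3 and 4). Over all genes tested, r was 0.80 (arrays 1 and 3) and 0.83 (arrays 2 and 4) with the same dye order. It ranged from 0.62 to 0.74 for the other pairs. These are correlations across genes of the same 4 hybridizations and no replicates. The count of 11 lower members became 7 without array 1, 14 without array 2, 5 without array 3 and 6 without array 4. Averaging arrays 1 with 2 and 3 with 4 into 2 dye-balanced values gave 11. Which arrays would share a pool is not given, so that this pairing does not test the count at the level of pools.

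Genes of like brightness gave shares close to those of all genes. The probes of the members had mean log2 intensities between 7.60 and 14.63, with quartiles at 11.82 and 13.72. Between these quartiles lay 5146 genes, of which 16.1% were lower and 18.0% were higher, with a median ratio of 0.00027. Over the members' full range of intensities 17.3% of 15814 genes were lower. Only Aurkb and Cenpf had dim probes near the low end, where the offset used in background correction draws ratios towards 0.

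**Figure D2:**
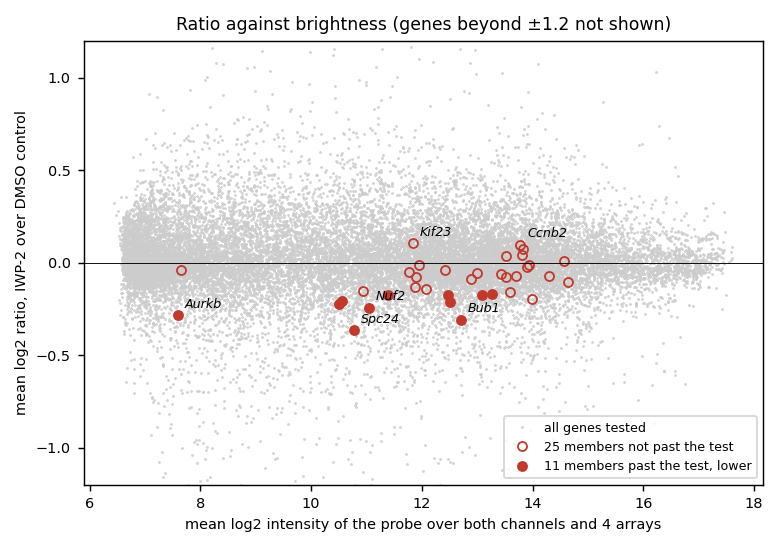
Mean log2 ratio of IWP-2 over DMSO control against the mean log2 intensity of the probe over both channels and 4 arrays. Grey points are all genes tested within the range drawn, filled circles the 11 members past the test and open circles the 25 others; the lowest member is Spc24 and the highest Kif23.

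Among the mitotic entry kinases and cyclins, 1 of 6 genes (16.7%) was lower past the test, close to the 15.0% of all genes tested. The steps hold few genes each, so their shares are coarse. Cdk1, the kinase that drives entry into mitosis, had ratios of -0.12, -0.17, -0.062 and -0.34 on arrays 1 to 4. All 4 arrays were on the low side, array 4 most and array 3 least. The mean was -0.17 ± 0.12 (adjusted p = 0.0283), and the call was lost without array 1 (adjusted p = 0.102), array 3 (0.0696) or array 4 (0.129). Of the 2 further probes of Cdk1, both dimmer, 1 gave -0.21 ± 0.13 and the other -0.18 ± 0.17. Ccna2, which encodes cyclin A2, had a mean of -0.20 ± 0.17 and missed the threshold (adjusted p = 0.0564). Its ratios were -0.19, 0.035, -0.34 and -0.30, so that array 2 alone lay above 0. Without array 2 the mean was -0.28 (adjusted p = 0.0108), as the 1 opposing value was left out. Without array 1, 3 or 4 the adjusted p was 0.0719, 0.199 and 0.213. The B-type cyclins did not share this pattern. Ccnb1 had a mean of -0.011 ± 0.12, and Ccnb2 had ratios of 0.076, 0.14, 0.26 and -0.086 with a mean of 0.097 ± 0.14 (adjusted p = 0.225). The mitotic kinases Plk1 (-0.042 ± 0.11) and Aurka (-0.086 ± 0.073) did not pass the test. Whether Cdk1 and its cyclins differ from each other was not tested.

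Top2a encodes the topoisomerase that untangles sister chromatids. Its ratios were -0.27, -0.17, -0.21 and -0.18. They lay closer together than those of any other member, and the mean was -0.21 ± 0.045 (adjusted p = 0.00832). Mki67, whose product coats mitotic chromosomes and is the widely used Ki-67 proliferation marker, had ratios of -0.027, 0.16, -0.31 and -0.10. The arrays lay on both sides of 0, and with a mean of -0.070 ± 0.19 it did not pass the test (adjusted p = 0.450). Its 95% interval ran from -0.23 to 0.087, so that a decrease of the size of Top2a is within it.

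Of the 7 kinetochore and centromere genes, 2 (28.6%) were lower, against 15.0% of all genes. Both encode subunits of the NDC80 complex, the main link of the kinetochore to microtubules. Spc24 gave the largest change of the members over the 4 arrays in this fit, though not under each alternative. Its ratios were -0.17, -0.38, -0.42 and -0.50, with a mean of -0.37 ± 0.14 (adjusted p = 0.00387). In the channel values, which are log2 intensities after normalization between arrays, the controls lay at 10.81, 11.01, 10.89 and 11.12 and the treated samples at 10.65, 10.63, 10.47 and 10.62. The treated values were all below the lowest control value. How many of all genes tested separate in this way was not counted, here or for the members below. Nuf2 had ratios of -0.27, -0.095, -0.37 and -0.23, with a mean of -0.24 ± 0.12 (adjusted p = 0.00857). All arrays were on the low side, and the 2 further probes of Nuf2 gave -0.47 ± 0.11 and -0.28 ± 0.16. The other two subunits did not pass the test. Ndc80 had a mean of -0.078 ± 0.098 (adjusted p = 0.234), and Spc25 had ratios of -0.082, 0.25, 0.053 and 0.071 with a mean of 0.073 ± 0.14 (adjusted p = 0.297). The 4 subunits are built into the complex in equal numbers, whereas their transcripts had different ratios here; the difference between them was not tested. Cenpa (0.038 ± 0.14), the histone H3 variant of centromeres, the kinetochore motor Cenpe (0.041 ± 0.078) and Cenpf (-0.040 ± 0.058) did not pass the test. Cenpa differed by dye order, with a mean of 0.16 on the arrays with red treated RNA and -0.080 on the others.

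The spindle checkpoint genes had the lowest median of the 8 steps, -0.19, and 2 of 4 were lower past the test (15.0% of all genes were). Bub1, a kinase of the checkpoint that is recruited to unattached kinetochores, had ratios of -0.27, -0.030, -0.53 and -0.41. The ratio was below 0 on each array but close to 0 on array 2, and the mean was -0.31 ± 0.21 (adjusted p = 0.0215). Its call was lost without array 3 (adjusted p = 0.0854) or array 4 (0.0501). The controls of Bub1 lay from 12.74 to 12.91 in log2 intensity and the treated samples from 12.38 to 12.71. The lowest control value and the highest treated value were both on array 2. Ttk, the kinase MPS1 that starts checkpoint signaling, had ratios of -0.27, -0.17, -0.16 and -0.30 and a mean of -0.22 ± 0.070 (adjusted p = 0.0112). Mad2l1, which encodes the checkpoint effector MAD2, had ratios of -0.26, 0.14, -0.29 and -0.22. Array 2 stood apart from the other 3, and its 2 further probes were above 0 on that array too, at 0.34 and 0.28. Over 4 arrays the mean was -0.16 ± 0.20 (adjusted p = 0.103). Without array 2, the 1 opposing array, it was -0.25 (adjusted p = 0.0132). Without array 1, 3 or 4 the adjusted p was 0.191, 0.240 and 0.430. Bub1b, which encodes BUBR1, had a mean of -0.014 ± 0.10.

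The chromosomal passenger complex corrects faulty attachments and later acts in cytokinesis. Of its 4 genes, 1 was lower past the test (15.0% of all genes were). Aurkb, its kinase, had ratios of -0.20, -0.38, -0.18 and -0.38 and a mean of -0.28 ± 0.11 (adjusted p = 0.00264). All 4 arrays were low, those with green treated RNA more than those with red. The mean was -0.39 without the offset, -0.44 with the processed signals and -0.42 with the series table. Its probe was the dimmest of the 36, with controls from 7.65 to 7.78 and treated samples from 7.37 to 7.58 in log2 intensity. The other subunits had smaller ratios. Birc5, which encodes survivin, had a mean of -0.11 ± 0.11 (adjusted p = 0.111), Incenp of -0.075 ± 0.053 and Cdca8, which encodes borealin, of -0.076 ± 0.13. With all 3 probes of Birc5 averaged, its mean was -0.15 (adjusted p = 0.0291).

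All 5 spindle motors and assembly factors had means below 0, and 2 were lower past the test (15.0% of all genes were). Nusap1, a microtubule-binding protein of the spindle, had ratios of -0.25, 0.023, -0.31 and -0.15 and a mean of -0.17 ± 0.15 (adjusted p = 0.0294). Kif11, the motor that pushes the spindle poles apart, had ratios of -0.36, 0.17, -0.41 and -0.099 and a mean of -0.17 ± 0.27 (adjusted p = 0.0493). The arrays of Kif11 split by dye, with a mean of -0.38 where the treated RNA was red and 0.036 where it was green. Its call rested on the dye term, since without that term the adjusted p was 0.235. It was also lost without array 1 (adjusted p = 0.102), array 3 (0.154) or array 4 (0.213), and that of Nusap1 without array 1 (0.0645), array 3 (0.113) or array 4 (0.134). Kif4, a chromosome-bound kinesin, had a mean of -0.15 ± 0.14 (adjusted p = 0.0746), and Tpx2, an activator of Aurora A, of -0.14 ± 0.13 (adjusted p = 0.0980). Without array 2, which was the highest for both, they passed the test, Kif4 at -0.22 (adjusted p = 0.0283) and Tpx2 at -0.22 (adjusted p = 0.0227). Neither passed without array 1, 3 or 4. The adjusted p then ranged from 0.104 to 0.313 for Kif4 and from 0.185 to 0.420 for Tpx2. Kif2c, a kinesin that takes microtubule ends apart, had a mean of -0.050 ± 0.059.

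At anaphase onset, 1 of 2 genes was lower past the test (15.0% of all genes were). Espl1 encodes separase, the protease that cleaves cohesin. Its ratios were -0.13, -0.32, -0.19 and -0.20, with all 4 arrays on the low side and array 2 lowest, and the mean was -0.21 ± 0.079 (adjusted p = 0.0117). The call was lost by a small margin without array 2 (adjusted p = 0.0501) or array 3 (0.0527). Cdc20, the activator of the anaphase-promoting complex, had ratios of 0.017, 0.085, -0.0061 and -0.069. These lay on both sides of 0 with a mean of 0.0068 ± 0.064 and a 95% interval from -0.098 to 0.11. The difference between Espl1 and Cdc20 was not tested.

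Among the 6 genes of the central spindle and cytokinesis, 1 (16.7%) was lower past the test, close to the 15.0% of all genes tested. Kif20a, a kinesin of the central spindle, had ratios of -0.20, -0.063, -0.15 and -0.27 and a mean of -0.17 ± 0.085 (adjusted p = 0.0357). Its call was lost without array 1 (adjusted p = 0.115), array 3 (0.0893) or array 4 (0.163). Kif23 and Racgap1 encode the kinesin and the GTPase-activating protein that form the centralspindlin complex. Racgap1 was below 0 on all 4 arrays, with a mean of -0.13 ± 0.068 just short of the threshold (adjusted p = 0.0503). Kif23 went against the others, with ratios of 0.016, 0.28, 0.11 and 0.028 and a mean of 0.11 ± 0.12 (adjusted p = 0.169). Its control values (11.70 to 11.85 in log2 intensity) and its treated values (11.80 to 12.03) overlapped, and a further, dimmer probe gave -0.072 ± 0.069, so that the probes of Kif23 disagreed in sign. Ect2, the exchange factor that activates RhoA (-0.058 ± 0.23), Anln, which encodes the scaffold anillin (-0.063 ± 0.10), and Prc1, the microtubule bundler of the midzone (-0.022 ± 0.13), did not pass the test.

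**Figure D3:**
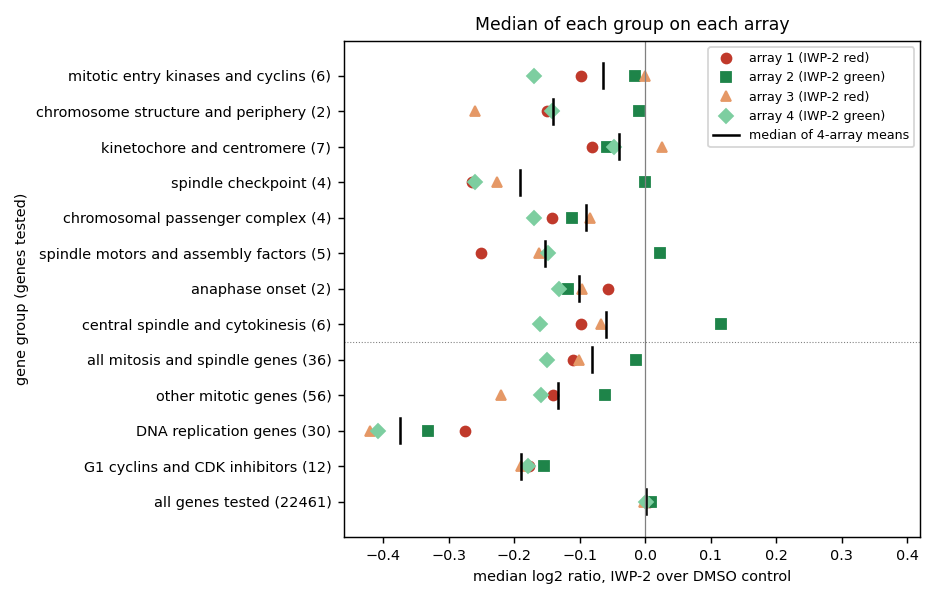
Median log2 ratio of IWP-2 over DMSO control of each gene group on each array, with the number of genes tested in brackets. Symbols are the 4 arrays and black bars the medians of the 4-array means; the mitosis genes lie at -0.082 between all genes tested (0.0011) and the DNA replication genes (-0.37), and array 2 is above 0 for the spindle motors and for the central spindle genes.

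For the 25 members that did not pass the test, the 95% intervals of the log2 ratio lay between -0.35 and 0.23, and the median interval of all members reached 0.11 to either side of the mean. Of the 13 members with more than 1 probe, 17 further probes were well above background, and 14 of them had the sign of the probe used. The dye term had an unadjusted p under 0.05 for 4 members, which were Cenpa, Aurkb, Kif11 and Nusap1 (named after their values were seen). The share of all genes tested with such a dye term was not counted, so that this count cannot be set against it. No gene on the array had a dye term with an adjusted limma p under 0.05, the lowest being 0.122.

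Genes of mitosis outside the 36 were looked at by a list of 58 names, of which 56 were tested. Of these, 24 were lower (15.0% of all genes were) and 2 were higher (18.1% of all genes were), and their median ratio was -0.13. The 5 lowest were Ncapg2 (-0.45 ± 0.32, adjusted p = 0.0192), a subunit of condensin II, Cenpq (-0.44 ± 0.10, adjusted p = 0.000954) of the inner kinetochore, Nsl1 (-0.44 ± 0.064, adjusted p = 0.000887) of the MIS12 complex, Ncaph (-0.43 ± 0.029, adjusted p = 0.000652) of condensin I, and Cenpm (-0.42 ± 0.13, adjusted p = 0.00106) of the inner kinetochore. In the same fit, each of these means lay below that of Spc24. The 2 that were higher were Kif14 (0.16 ± 0.091, adjusted p = 0.0453) and Cit (0.21 ± 0.17, adjusted p = 0.0185), which encodes citron kinase. Their probes were dim, with mean log2 intensities of 8.41 for Kif14 and 9.01 for Cit. Cit had a mean of 0.34 on the arrays with red treated RNA and 0.080 on the others. Genes of other parts of the cell cycle were read the same way. Of 30 DNA replication genes, 27 were lower and 0 higher, with a median of -0.37, and their medians on arrays 1 to 4 were -0.28, -0.33, -0.42 and -0.41. Array 2 was thus no exception for the replication genes. Of 12 G1 cyclins and CDK inhibitors, 8 were lower and 1, the inhibitor Cdkn1a (0.40 ± 0.11, adjusted p = 0.00169), was higher. Their median was -0.19, and 4 of them were above 0 on all 4 arrays. The difference between these lists and the mitosis genes was not tested.

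**Figure D4:**
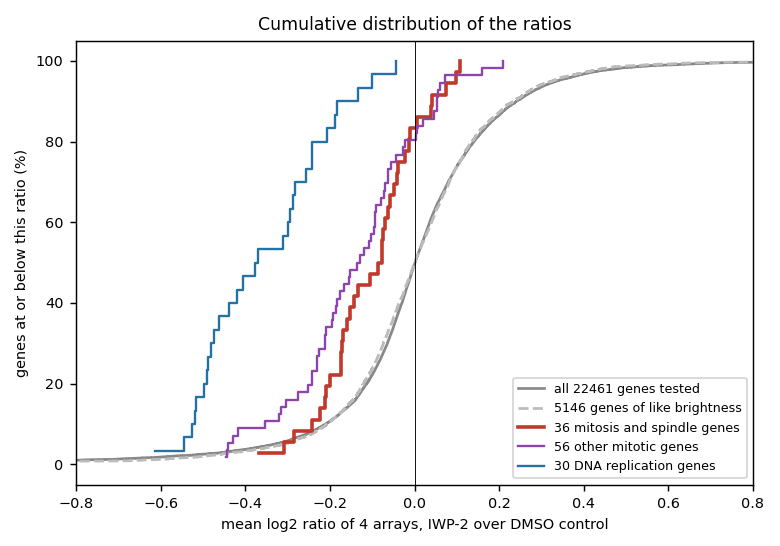
Cumulative share of genes (in %) at or below a given mean log2 ratio of IWP-2 over DMSO control, for the 36 mitosis and spindle genes, the 56 other mitotic genes, the 30 DNA replication genes, all 22461 genes tested and the 5146 genes between the quartiles of the members' brightness. The mitosis genes lie left of all genes over most of their range (median -0.082 against 0.0011) but do not reach below -0.37, and the replication genes lie farther left (median -0.37).

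WNT targets and cell type markers were read from lists chosen with earlier results of these data known. Their counts are thus a description and no independent check of the block or of the makeup of the explants. Of all genes tested, 15.0% were lower and 18.1% were higher. All 6 WNT targets were lower, with a median of -1.58 and array medians from -1.67 to -1.53. All 5 smooth muscle markers were lower (median -0.73, array medians from -0.84 to -0.39). Higher were 7 of 7 markers of epithelium (median 0.30, array medians from 0.22 to 0.41), 4 of 5 of endothelium (0.22, from 0.19 to 0.30), 4 of 5 of blood (0.28, from 0.057 to 0.46), 4 of 5 tested of macrophages (0.40, from 0.36 to 0.46) and 5 of 5 of nephron progenitors (0.28, from 0.14 to 0.44). Of 6 mesenchyme markers 1 was lower and 1 higher, and of 5 neural crest markers likewise. All tested markers were well above background in at least 1 group on all 4 arrays, which the filter required of every gene tested. The part of the makeup of the explants in the ratios of the mitosis genes was not tested.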

How the data were processed

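The authors hybridized the arrays, scanned them and ran Agilent Feature Extraction 10.7.3.1 (per the submitters' processing notes). The deposited scanner files hold raw and processed intensity values per spot and channel. The log10 ratio of processed red over green, as deposited in these files, served only to check directions. The authors also deposited a series table of signed fold changes per probe (unit score, as normalization is not stated), used as an alternative.

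Raw intensities were corrected with normexp (offset 50) and normalized by loess within each array (span 0.3) in limma 3.58.1 (R 4.3.3). Control spots had weight 0, outlier spots were left out, and the spots of a probe were averaged. Genes entered the test where over 0.5 of the spots of a probe exceeded background clearly (per the scanner's flag), in the control or the treated channel of all 4 arrays. The brightest probe stood for a gene. This left 29943 probes and 22461 genes. Ratios were fitted with lmFit and eBayes with a dye term per gene (two-sided, threshold 0.05 after Benjamini-Hochberg correction). The scripts were tested on simulated data. The number of arrays limits the precision.

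The members, the gene lists and the alternatives were chosen with earlier results of these data known. All members are named; values on each array are given for the largest change in each step, the 3 largest changes and members that went against the others, and some further members were picked after their values were seen. Lists were described by counts and medians, without a set test. The labels count 4 replicates, and all 4 arrays lay on 1 slide with 1 scan time. The methods count as many samples as arrays, but a legend speaks of 2 pools per group, so that the arrays may hold dye-swapped repeats of the same RNA; which arrays would share a pool is not given in the sources used here. The p-values therefore measure the spread between arrays, which may be in part technical, and would be too small if only 2 pools per group were used. Probe positions in the files are on mm9 and were not used with the GRCm38.p6 promoters; no exon or untranslated region was assigned.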

Additional observations from a re-analysis of the deposited data

Results flagged for a closer look

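Of 45 values examined on the 4 arrays (36 genes, 8 steps and the whole group), 2 had 1 array far from the other 3; chance sets about 1 in 20 apart, or 2.25 of 45. Mad2l1 was at 0.14 on array 2, while the other arrays lay from -0.29 to -0.22. The median of the 4 spindle checkpoint genes, which include Mad2l1, was -0.00011 on array 2 and from -0.26 to -0.23 on the others.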

How the results depend on the processing

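The count of members higher with IWP-2 was 0 under all 15 alternatives, and the median of the members stayed below 0. The count of 11 lower members fell to 7 with the processed signals and 6 with the series table, whose fold changes are rounded, and ranged from 5 to 14 when 1 array was left out. It was 8 to 13 under the other alternatives. The median ranged from -0.14 to -0.067 when 1 array was left out. The count of members below 0 on all arrays was 12; it was 6 with the series table, 26 with the arrays averaged in dye-balanced pairs, where 2 values rather than 4 have to be below 0, and 12 to 22 without 1 array. Of the 11 calls, Spc24, Nuf2 and Aurkb (not tested where a processed signal over 100 was asked for) kept theirs throughout; Kif11 lost its call under 10 alternatives, Cdk1, Nusap1 and Kif20a under 6 each, Bub1 and Espl1 under 3 each, and Top2a and Ttk with the series table alone. Of the 25 other members, 9 passed under some alternative. The sign changed for 5 members near 0. Cdc20 went to -0.034 with the series table, to -0.050 with median centring and ranged from -0.032 to 0.045 without 1 array. Ccnb1 was at 0.0088 with the mean of its probes. Without 1 array, Ccnb1 ranged from -0.066 to 0.044, Bub1b from -0.061 to 0.032, Prc1 from -0.098 to 0.055 and Ect2 from -0.15 to 0.036. The cause was not tested. Slide and scan time as a block were not run, as they do not separate the arrays. The ratio within an array already pairs treated and control RNA. With the 8 channels as samples and the array as a block, 13 members and 17.9% of all genes were lower, with Ccna2 and Racgap1 added.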
